A study of Mus musculus with 9 samples.

Results

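The kidney transcriptome of mice with the C59S knock-in allele of Nfkb1 was compared with that of wild-type (WT) mice. The comparison used 6 of the 9 libraries of the series, 3 labelled C59S and 3 labelled WT, chosen by the genotype in the labels. Its members were the 20883 protein-coding and 4439 lincRNA genes outside chromosomes X, Y and MT, of 52636 genes in the count table. A filter on low counts left 13948 protein-coding and 543 lincRNA genes for testing, together 14491 of the 17114 genes tested, so most lincRNA genes were too weakly counted to be compared.

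The study asked how altered NF-kB activity bears on blood pressure and chronic kidney disease. The C59S allele (NF-κB1C59S in the labels) replaces cysteine 59 of the NF-kB p50 protein, and its targeting vector carried a PGK-neo selection cassette in an intron near the changed codon. It was made in embryonic stem cells derived from C57BL/6NTac and placed in C57BL/6 blastocysts. The labels do not say whether the cassette was later removed, nor whether the mice were heterozygous or homozygous. A cassette that remained would be in C59S but not in WT mice, and its effect and that of the codon cannot be told apart. Per the labels C59S is the inactivated form, but the text on DNA binding lists the alleles the other way round, so no direction was assumed. The labels give no age, sex, litter, or count of the clones behind the line, and do not say whether the WT mice were littermates or each library a separate animal. P-values therefore weigh only the spread among the sequenced samples, and part of that spread may be technical. The remaining 3 libraries carry the C59A allele, and entered the model only to share its estimate of the spread.

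NF-kB is a family of dimeric transcription factors. Nfkb1 encodes the precursor p105, which holds other family members in the cytoplasm and from which p50 is made. p50 carries a DNA-binding Rel homology region but no transactivation domain of its own, so its homodimers can occupy kB sites without activating them, whereas its dimers with p65 (Rela) activate genes of inflammation and cell survival. In the kidney the pathway is studied for its part in tubular injury, immune cell recruitment and fibrosis.

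The changed codon is shown here because it is the difference that defines the groups. In the GENCODE M21 transcript Nfkb1-201, codon 59 lies in exon 6 on the minus strand of chromosome 3, at positions 135655572 to 135655574 of GRCm38. The following WT stretch, chr3:135655548-135655598 on the minus strand, is printed 5′ to 3′ with codon 59 in capitals.
Nfkb1 exon 6, WT: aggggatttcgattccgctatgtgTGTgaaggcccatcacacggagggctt
The labels give the replacement codons as GCT and TCA for the 2 alleles. TCA is a serine codon in the standard genetic code.

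Promoters were searched in 20 of the 29 genes named for the smallest p-values or for tight, separate groups, and 3 of these 20 genes held a kB motif. The rest had no promoter entry or lay on a chromosome that was left out. Promoters are printed for those 3 and for Rac3, which had the smallest p-value. They run from 250 bases before to 50 after the RefSeq start (GRCm38.p6), 5′ to 3′ on the gene's strand. The kB motif searched on both strands was GGG, then any 2 bases, then TTTCC, and a match is in capitals.
Mdfic, chr6:15720411-15720710, plus strand: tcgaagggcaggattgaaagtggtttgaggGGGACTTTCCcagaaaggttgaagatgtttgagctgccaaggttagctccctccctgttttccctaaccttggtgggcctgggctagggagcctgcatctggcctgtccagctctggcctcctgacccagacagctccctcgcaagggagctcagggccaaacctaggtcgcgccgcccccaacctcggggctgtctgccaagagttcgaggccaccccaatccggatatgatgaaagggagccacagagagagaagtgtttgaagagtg
Csf1, chr3:107760420-107760719, minus strand: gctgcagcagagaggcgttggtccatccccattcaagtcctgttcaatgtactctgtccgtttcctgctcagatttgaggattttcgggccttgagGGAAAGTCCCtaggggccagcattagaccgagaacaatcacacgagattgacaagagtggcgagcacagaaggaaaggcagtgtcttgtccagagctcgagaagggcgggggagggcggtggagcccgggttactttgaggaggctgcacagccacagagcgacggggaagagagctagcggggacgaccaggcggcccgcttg
Olfm4, chr14:80000052-80000351, plus strand: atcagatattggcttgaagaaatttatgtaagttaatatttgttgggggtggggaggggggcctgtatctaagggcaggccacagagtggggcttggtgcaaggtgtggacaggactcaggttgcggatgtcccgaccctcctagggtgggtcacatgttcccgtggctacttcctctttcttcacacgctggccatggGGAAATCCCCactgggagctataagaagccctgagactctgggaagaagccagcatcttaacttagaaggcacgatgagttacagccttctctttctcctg
Rac3, chr11:120721218-120721517, plus strand: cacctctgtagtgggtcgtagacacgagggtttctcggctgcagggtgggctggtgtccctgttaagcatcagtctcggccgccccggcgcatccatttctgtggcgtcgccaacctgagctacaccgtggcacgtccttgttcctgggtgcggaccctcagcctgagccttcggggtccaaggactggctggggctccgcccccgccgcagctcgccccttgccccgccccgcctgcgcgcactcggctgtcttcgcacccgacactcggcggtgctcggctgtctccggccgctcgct

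Across all 32851 RefSeq promoters of this length, 1.63% held the motif, a smaller share than the 3 of 20 genes above. Those 20 genes were picked by their values in these data, and some had several promoters, so that count is no test. Of the promoters of tested protein-coding genes, 2.1% held it where all C59S values lay above all WT values (35 of 1670), 1.25% where they lay below (19 of 1518) and 1.67% where the groups overlapped (177 of 10591). For scale, 8 of 29 promoters of a list of classical NF-kB target genes held it (27.6%). A match is a description of these letters, and no binding was measured.

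Libraries differed in ways that bear on every result. Total counts ran from 18428728 to 21144972 in WT and from 18603933 to 25787659 in C59S. Levels are given as CPM, counts per 1000000 of the library total scaled with edgeR's TMM factors, and values are listed for replicates 1, 2 and 3 in that order. Kidney markers were high in all 6 libraries: the proximal tubule phosphate transporter gene Slc34a1 was at 6561, 6650 and 6663 CPM in WT and 3161, 4549 and 4490 CPM in C59S. Mitochondrial genes took 19.6%, 18.8% and 16.4% of the counts in WT and 25.3%, 20.5% and 40.5% in C59S (18.2% ± 1.65 and 28.8% ± 10.5, SD, n = 3 each), so every C59S library lay above every WT library and replicate 3 stood farthest apart.

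Transcripts of tissues that adjoin the kidney were higher in single C59S libraries. The mean log2 level of 18 white adipocyte genes was 2.95, 2.90 and 2.86 in WT and 3.41, 5.90 and 6.21 in C59S. All 18 had more than 3 reads in C59S replicates 2 and 3, against 15 in C59S replicate 1 and 13 or 14 in each WT library. Of 10 brown adipocyte genes 4 passed the low-count filter, 2 higher and 2 lower in C59S. Among those that did not pass it, Ucp1 had 4, 0 and 0 reads in WT and 2, 36 and 428 in C59S. Cidea had 8, 4 and 3 reads in WT and 4, 98 and 398 in C59S, so both were highest in C59S replicate 3. The CPM of 9 adrenal cortex genes summed to between 9.0 and 12.6 in WT libraries, and in C59S to 9.29, 138 and 7.49. In C59S replicate 2 the steroidogenic enzyme gene Cyp21a1 was at 41.1 CPM, and it had no read in any of the other 5 libraries. Genes of the urothelium, the lining of the renal pelvis and ureter, summed to at most 7.87 CPM in WT, and in C59S to 8.39, 18.1 and 70.5 CPM. The part of these transcripts and of the mitochondrial share in the results below was not tested beyond the refits given with them. In whole tissue, fewer cells of a type and less RNA per cell cannot be told apart.

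**Figure D1:**
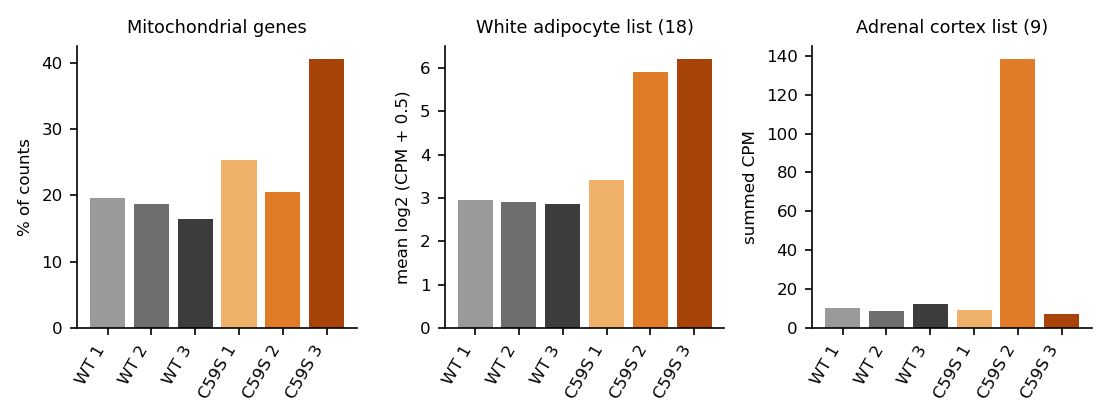
Bars give, for each of the 3 WT and 3 C59S libraries, the percentage of counts in mitochondrial genes (left), the mean log2 (CPM + 0.5) of the 18 white adipocyte list genes (middle) and the summed CPM of the 9 adrenal cortex list genes (right). C59S replicate 3 stands apart in mitochondrial share (40.5%), C59S replicates 2 and 3 in adipocyte genes (5.90 and 6.21) and C59S replicate 2 in adrenal cortex genes (138 CPM).

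No protein-coding or lincRNA gene passed an adjusted p of 0.05 between C59S and WT in the quasi-likelihood test of edgeR, adjusted by Benjamini-Hochberg over all 17114 genes (0 of 14491, 0%, as over all tested genes). The smallest adjusted p was 0.0831, for Rac3. At an unadjusted p under 0.05 the same test took 1288 protein-coding genes higher (9.23%) and 1246 lower (8.93%) in C59S, and 9 lincRNA genes higher (1.66%) and 80 lower (14.7%). Together that was 18.1% of the members, as of all tested genes (18.1%). The main test thus called nothing while many genes leaned one way, and the count of calls depended on the fit.

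The labels do not pair the libraries, and the sample names in the count table carry numbers that mostly differ from those of the titles. WT and C59S libraries with the same replicate number in the titles deviated together, so a pairing by these title numbers was chosen from these same counts. Calls with this block rest on that choice, and a fit of all 9 libraries with it gave 0. With the number as a block in a fit of the 6 libraries, 233 protein-coding genes passed higher (1.69%, against 1.48% of all genes) and 325 lower (2.36%, against 2.34%), together 4.06%. There 13 lincRNA genes passed lower (2.55%) and 0 higher (0%), so that 4% of all members tested passed in either direction, against 3.82% of all genes. DESeq2 on all 9 libraries passed 234 protein-coding genes higher (1.7%, against 1.55% of all genes) and 294 lower (2.14%, against 2.27%). It passed 2 lincRNA genes higher (0.413%) and 17 lower (3.51%), and 3.84% of all members in either direction. The 2 sets of calls shared 339 genes, 59.4% of the paired calls and 62.0% of the DESeq2 calls, and all 339 had the same sign in both. Leaving out WT replicate 3 gave 582 protein-coding and 28 lincRNA calls in edgeR, and leaving out C59S replicate 1 gave 32 and 1. Limma voom gave 0.

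Effects were small in most genes. Among protein-coding genes the log2 fold changes of C59S against WT had a median of 0.03, and the interquartile range ran from -0.19 to 0.24, with a median standard error of 0.18. A total of 394 protein-coding genes were at least 2-fold higher and 153 at least 2-fold lower (2.82% and 1.1%, against 2.82% and 2.99% of all tested genes). In 190 and 92 of them all 3 C59S values also lay beyond all 3 WT values (1.36% and 0.66%, against 1.39% and 1.61% of all tested genes). Without a fold limit, groups did not overlap in 1723 protein-coding genes that were higher (12.4%) and 1496 that were lower (10.7%), against 11.2% and 11.3% of all tested genes. That split depended on the scaling: with library totals alone, in which mitochondrial reads count in full, the shares were 3.26% higher and 19% lower. The same scaling moved the median of all tested genes from 0.01 to -0.19, so fold changes here are relative to the typical gene.

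Of the 13008 protein-coding genes with a mean of at least 1 CPM, 175 were at least 2-fold above the highest WT value in C59S replicate 3 alone, 66 in replicate 1 alone and 17 in replicate 2 alone. Below the lowest WT value by 2-fold, 64 genes stood in replicate 3 alone, 51 in replicate 1 alone and 14 in replicate 2 alone. All 3 C59S libraries passed this limit in 15 genes above and in 3 genes below. The 3 below were Rac3, Cyp27b1 and Caps2. Of the 15 above, 6 belonged to the white adipocyte list (Fabp4, Cfd, Cidec, Adipoq, Retn, Pparg) and 3 to the fibroblast and matrix list (Postn, Dpt, Lum). Adipoq passed the limit on 6 reads in C59S replicate 1, against 0 or 1 in each WT library. Adipoq, Cidec and Retn passed the low-count filter only through knock-in libraries, so their direction was fixed in advance.

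**Figure D2:**
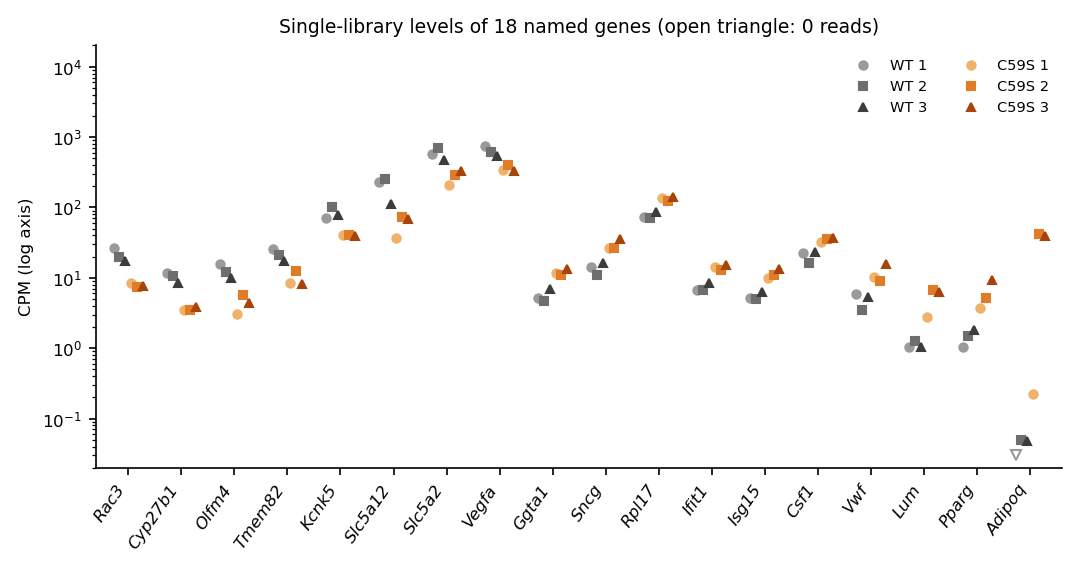
CPM on a log axis for 18 named genes in each WT library (grey) and each C59S library (orange), with the replicate number shown by the marker; an open triangle marks 0 reads. For Rac3, Cyp27b1, Kcnk5, Ggta1 and Sncg the 3 C59S values lie close together beyond all WT values, whereas Adipoq is at 42.3 and 39.8 CPM in C59S replicates 2 and 3 and at 0.22 CPM in replicate 1.

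The gene with the smallest p-value was Rac3, which encodes a small GTPase that acts on the actin cytoskeleton. Rac3 was at 26.7, 19.6 and 17.3 CPM in WT and 8.54, 7.35 and 7.76 CPM in C59S. The C59S values were tightly grouped and far below the lowest WT value. The log2 fold change was -1.43 ± 0.18 (SE, n = 3 against 3, edgeR adjusted p = 0.0831). In the paired fit the adjusted p was 0.0321, and over 24 alternatives it ran from 1.36e-07 to 0.844, under the threshold in 6. Without C59S replicates 2 and 3, the fat-rich libraries, the log2 fold change was -1.32. In the C59A libraries Rac3 was at 7.00, 7.71 and 8.44 CPM, a comparison that would share the same WT libraries.

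Cyp27b1 encodes the 1-alpha-hydroxylase of the proximal tubule that makes the active form of vitamin D. It was at 11.5, 10.8 and 8.39 CPM in WT and 3.47, 3.52 and 3.85 CPM in C59S. The 3 C59S values were nearly equal and far below the lowest WT value. The log2 fold change was -1.50 ± 0.25 (edgeR adjusted p = 0.112; paired 0.0321; 7.14e-05 to 0.844 over the alternatives). In C59A its level was 18.8, 9.41 and 13.9 CPM.

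Kcnk5, the gene of the potassium channel TASK-2 of the proximal tubule, was at 71.5, 102 and 77.1 CPM in WT and 41.2, 40.7 and 38.9 CPM in C59S. Its log2 fold change was -1.05 ± 0.17 (edgeR adjusted p = 0.112; paired 0.0321; 1.12e-04 to 0.844 over the alternatives). Olfm4, the gene of a secreted glycoprotein whose promoter is printed above, was at 15.9, 12.1 and 9.96 CPM in WT and 3.06, 5.68 and 4.32 CPM in C59S. The groups of both genes were well apart, and for Olfm4 the log2 fold change was -1.54 ± 0.25 (edgeR adjusted p = 0.112; paired 0.0438; 6.78e-05 to 0.844 over the alternatives). Tmem82 stood at 25.3, 20.8 and 17.4 CPM in WT and 8.32, 12.5 and 8.10 CPM in C59S, a log2 fold change of -1.13 ± 0.19.

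Some genes held their level tightly within each genotype. These had no overlap of the groups and under 1.5-fold between the highest and lowest library of each genotype. Among the 9169 protein-coding genes of at least 10 CPM, 937 such genes lay higher and 1019 lower in C59S. That was 7.2% and 7.83% of the 13008 protein-coding genes of at least 1 CPM. This base includes genes under 10 CPM, which could not qualify, so the shares of the 9169 genes are larger. Without the limits on level and ratio, groups did not overlap in 11.2% (higher) and 11.3% (lower) of all tested genes, so these counts were not read as a result. The lower genes with the largest folds included Sypl2 (log2 fold change -1.04 ± 0.18), Slc25a42, a mitochondrial carrier for coenzyme A (-0.93 ± 0.18), and the transcription factor genes Maf (-0.90 ± 0.19) and Sall1 (-0.80 ± 0.17). Vegfa, the growth factor that maintains the glomerular and peritubular endothelium, was at 739, 618 and 546 CPM in WT and 338, 402 and 333 CPM in C59S. Every C59S library thus had less Vegfa RNA than the lowest WT library, with a log2 fold change of -0.83 ± 0.17 (edgeR adjusted p = 0.121; paired 0.0351; 2.75e-04 to 0.844 over the alternatives). Fam184a and Auts2 were lower by similar amounts (-0.89 ± 0.19 and -0.83 ± 0.23).

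Genes of the proximal tubule leaned lower, by an amount that depended on the fit. Of 28 proximal tubule genes tested, 21 had lower and 7 higher values in C59S, 7 lower and 1 higher at an unadjusted p under 0.05 (9.84% and 8.23% of all tested genes), and 7 lower in the paired fit (2.34%). The 1 higher gene was Napsa, at 2288, 2714 and 922 CPM in WT and 4123, 2858 and 3636 CPM in C59S (0.84 ± 0.33). The list median was -0.32, against 0.01 for all tested genes, and was -0.17 without C59S replicate 1 and -0.75 with it as the only C59S library. It was -0.155 with the mitochondrial share as a covariate and -1.05 with the adipocyte genes as a covariate. Single libraries differed: against the WT mean the list median was -0.74, 0.01 and -0.33 in C59S replicates 1, 2 and 3. Slc5a12, a sodium-coupled lactate transporter gene, was at 227, 249 and 112 CPM in WT and 36.9, 72.9 and 67.3 CPM in C59S, a log2 fold change of -1.73 ± 0.38 (edgeR adjusted p = 0.13). Slc5a2, which encodes the glucose transporter SGLT2, was at 570, 692 and 475 CPM in WT and 211, 289 and 332 CPM in C59S. Its groups did not overlap, and the log2 fold change was -1.06 ± 0.23 (edgeR adjusted p = 0.121; paired 0.0438; 0.00122 to 0.844 over the alternatives). The amino acid transporter genes Slc6a19 (-0.85 ± 0.20) and Slc7a7 (-0.80 ± 0.24) were lower too.

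Phosphate and vitamin D genes showed the same lean, with 19 of 21 tested members lower and a median of -0.21, which was -0.42 without C59S replicate 2, -0.36 without WT replicate 2 and -0.32 without WT replicate 1. At an unadjusted p under 0.05 there were 5 lower and 0 higher (9.84% and 8.23% of all tested genes). The 2 that passed lower in the paired fit (2.34% of all genes) were Cyp27b1 and Slc34a3. The sodium-phosphate cotransporter gene Slc34a1 (-0.70 ± 0.22, values above) did not pass it. Slc34a3, of the same family, was at 124, 147 and 108 CPM in WT and 79.7, 81.1 and 89.5 CPM in C59S. Glucose-producing and ammonia-producing enzymes were lower in 14 of 16 genes (median -0.15, -0.07 without WT replicate 2 and -0.09 without C59S replicate 1), and against the WT mean their median was -0.31, 0.06 and -0.19 in the 3 C59S libraries, so replicate 2 was not lower. Among them G6pc, glucose-6-phosphatase, ranged widely, from 283 to 510 CPM in WT and from 84.2 to 265 CPM in C59S. The partner glucose-6-phosphate transporter gene Slc37a4 was at 170, 214 and 210 CPM in WT and 120, 152 and 113 CPM in C59S, a log2 fold change of -0.63 ± 0.18. Fatty acid oxidation genes were uneven: 23 of 30 were lower (median -0.13) but 2 at an unadjusted p under 0.05, and the median against the WT mean was -0.36, 0.20 and -0.33 in the 3 C59S libraries. The list median was -0.03 without C59S replicate 3, -0.37 without C59S replicate 2 and 0.13 with the mitochondrial share as a covariate. Ppara, the transcription factor that drives these genes, was at 16.6, 23.5 and 9.73 CPM in WT and 5.67, 9.47 and 8.91 CPM in C59S.

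Distal convoluted tubule genes were lower in 10 of 12 members (median -0.39), 6 of them at an unadjusted p under 0.05 (9.84% of all tested genes) and 3 in the paired fit (2.34%), with none higher. Medians against the WT mean were close in the 3 C59S libraries, at -0.37, -0.34 and -0.46, and the list median was -0.19 without WT replicate 3. Slc12a3 encodes the thiazide-sensitive sodium chloride cotransporter and was at 2104, 3304 and 1980 CPM in WT and 1431, 1387 and 1257 CPM in C59S. Its log2 fold change was -0.86 ± 0.24 (edgeR adjusted p = 0.145; paired 0.0463; 0.0117 to 0.844 over the alternatives). Klhl3, which marks WNK kinases for degradation, stood at 109, 122 and 123 CPM in WT and 84.5, 95.6 and 77.7 CPM in C59S. Sgk1, a kinase gene induced by aldosterone, stood at 142, 141 and 193 CPM in WT and 98.0, 94.1 and 108 CPM in C59S, so that neither gene's groups overlapped.

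Farther along the nephron the lists did not share one direction. Loop of Henle genes had a median of 0.25 (-0.08 without C59S replicate 1 and 0.14 without WT replicate 3) with no member at an unadjusted p under 0.05, and their median against the WT mean was 0.58 in C59S replicate 1 but 0.03 and -0.09 in replicates 2 and 3. Principal cell genes of the collecting duct were higher in 8 and lower in 3 of 11 members (median 0.35, 0.20 without WT replicate 2 and 0.58 without WT replicate 3), 2 of them higher at an unadjusted p under 0.05. The water channel gene Aqp2 was at 215, 185 and 259 CPM in WT and 550, 259 and 570 CPM in C59S. C59S replicate 2 was level with the highest WT library, and the log2 fold change was 1.06 ± 0.35 (edgeR adjusted p = 0.184; paired 0.0417; 0.0291 to 0.856 over the alternatives). The sodium channel subunit gene Scnn1a leaned the other way, at 121, 136 and 133 CPM in WT and 118, 102 and 108 CPM in C59S (-0.25 ± 0.11). Intercalated cell genes had a median of -0.11, which was 0.06 without WT replicate 3 and -0.25 without WT replicate 2. Podocyte genes had a median of 0.26, which was 0.10 without WT replicate 2, 0.13 without C59S replicate 2, 0.45 without C59S replicate 1 and 0.45 without WT replicate 3.

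Among genes that were higher in C59S, Sncg had one of the smallest p-values. It encodes gamma-synuclein, found in peripheral neurons and adipocytes, and was at 14.4, 11.0 and 16.3 CPM in WT and 26.5, 26.6 and 35.2 CPM in C59S. All C59S values lay above all WT values, and the log2 fold change was 1.08 ± 0.17 (edgeR adjusted p = 0.112; paired 0.0321; 1.36e-04 to 0.844 over the alternatives). C59S replicate 1 had the lowest adipocyte list level of the C59S libraries, but at 3.41 it lay above the WT libraries, at 2.86 to 2.95. Ggta1, an alpha-1,3-galactosyltransferase gene, was at 5.22, 4.68 and 7.01 CPM in WT and 11.5, 10.8 and 13.2 CPM in C59S (1.07 ± 0.20). Rpl17, a large-subunit ribosomal protein gene, was at 73.6, 70.9 and 86.9 CPM in WT and 138, 123 and 139 CPM in C59S (0.79 ± 0.13). Ribosomal protein genes have many processed copies, so reads of Rpl17 may be shared with them. Of 54 ribosomal protein genes tested 50 were higher, with a median of 0.18 that turned to -0.02 with library totals and was 0.10 without WT replicate 2, 0.11 without WT replicate 1 and 0.34 without WT replicate 3, and Rpl17 was the 1 member that passed the paired fit.

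Other tightly held higher genes were Trf, transferrin (0.88 ± 0.17), Smad6, an inhibitor of BMP signalling (0.76 ± 0.16), Mdfic (0.78 ± 0.20) and Cd55, a complement regulator (0.73 ± 0.18). Mdfic was at 13.7, 11.3 and 12.6 CPM in WT and 24.2, 18.9 and 21.5 CPM in C59S. The groups were clearly separate in Mdfic, 1 of the 3 genes whose printed promoter holds a kB motif. In the other two the directions differed, with Csf1 higher and Olfm4 lower.

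Nfkb1 itself was at 32.2, 33.8 and 36.8 CPM in WT and 39.7, 37.5 and 36.9 CPM in C59S. The groups were separate only by a narrow gap, with a log2 fold change of 0.15 ± 0.13 (edgeR adjusted p = 0.567) that turned to -0.04 with library totals. A gene count does not show the codon change, so it checks no label. Of 19 NF-kB and Rel family genes tested, 11 were higher and 8 lower, with a median of 0.08 (-0.11 with library totals, -0.02 without C59S replicate 3, 0.01 without WT replicate 1, 0.04 without WT replicate 2 and 0.04 without C59S replicate 2). At an unadjusted p under 0.05 there were 0 higher and 2 lower, a share near that of all tested genes (9.84% lower): Nfkbiz, a nuclear IkB protein, and Chuk, the kinase IKK-alpha. Nfkbiz was at 30.7, 27.0 and 21.4 CPM in WT and 20.9, 20.3 and 16.6 CPM in C59S (-0.45 ± 0.18). Chuk was at 83.8, 89.6 and 61.6 CPM in WT and 57.8, 63.0 and 57.1 CPM in C59S (-0.40 ± 0.15), with C59S replicate 2 inside the WT range. Neither passed the paired fit.

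Classical NF-kB target genes leaned higher, 19 of 24 with a median of 0.31, which was 0.10 with library totals, 0.14 with C59S replicate 1 as the only C59S library and 0.46 without WT replicate 3. At an unadjusted p under 0.05 there were 4 higher and 0 lower (8.23% and 9.84% of all tested genes). Csf1, the growth factor of macrophages, was at 22.3, 16.1 and 23.3 CPM in WT and 32.6, 35.3 and 36.2 CPM in C59S. Its C59S values were close together above all WT values, with a log2 fold change of 0.75 ± 0.19 (edgeR adjusted p = 0.133; paired 0.0419; 0.0205 to 0.844 over the alternatives). Il34, another ligand of the same receptor, was at 9.23, 7.14 and 7.63 CPM in WT and 14.4, 10.2 and 9.65 CPM in C59S. Vcam1, a leukocyte adhesion molecule, was at 8.43, 15.2 and 16.8 CPM in WT and 16.9, 20.7 and 21.8 CPM in C59S, so that its groups only just separated. The injury marker gene Lcn2 was uneven, at 1.86 to 2.87 CPM in WT and 15.3, 2.03 and 5.33 CPM in C59S.

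Interferon response genes were higher in 19 of 23 members, with a median of 0.56. At an unadjusted p under 0.05 there were 9 higher and 0 lower, groups did not overlap in 10, and 8 passed higher in the paired fit (8.23% higher, 11.2% and 1.48% of all tested genes). The list median was also 0.56 with C59S replicate 1 as the only C59S library, and against the WT mean it was 0.56, 0.53 and 0.39 in the 3 C59S libraries. It varied more with the WT libraries, at 0.38 without WT replicate 1, 0.45 without WT replicate 2 and 0.79 without WT replicate 3. With library totals it was 0.35. Isg15, a ubiquitin-like protein induced by interferon, was at 5.22, 5.03 and 6.29 CPM in WT and 9.998, 11.0 and 13.2 CPM in C59S. Its log2 fold change was 1.04 ± 0.21 (edgeR adjusted p = 0.121; paired 0.0334; 0.00149 to 0.844 over the alternatives). Ifit1, which binds viral RNA, was at 6.74, 6.79 and 8.53 CPM in WT and 14.3, 12.9 and 15.0 CPM in C59S (0.94 ± 0.22). Both genes were separate in every library, as were Bst2 (0.73 ± 0.18) and Irf7, the transcription factor that amplifies interferon production (0.61 ± 0.16). Not every member took part: the C59S values of Stat2, 49.4 to 56.5 CPM, overlapped its WT values, 49.8 to 60.02 CPM.

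**Figure D3:**
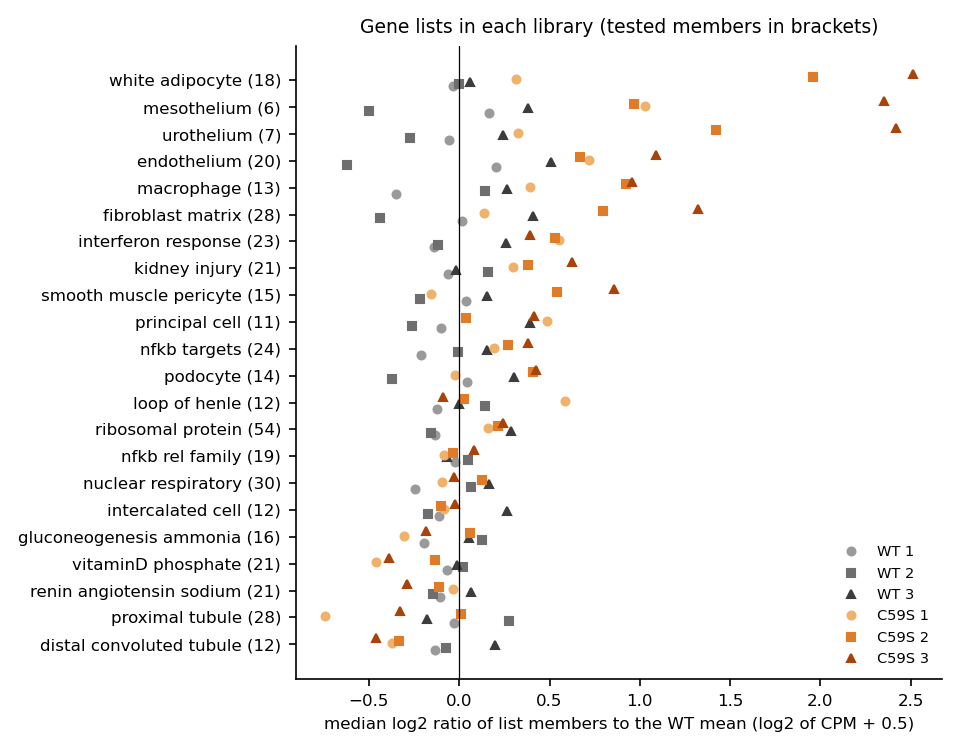
Each point is the median log2 ratio of the tested members of 1 gene list to their WT mean, in 1 library (WT grey, C59S orange, replicate by marker). The interferon response and distal convoluted tubule lists lie on one side in all 3 C59S libraries, whereas the adipocyte and urothelium lists lie far to the right in C59S replicates 2 and 3 only, and the proximal tubule list is near 0 in C59S replicate 2.

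Endothelial genes were higher in all 20 members tested, with a median of 0.80. At an unadjusted p under 0.05 there were 14 higher and 0 lower, groups did not overlap in 12, and 7 passed higher in the paired fit (8.23% higher, 11.2% and 1.48% of all tested genes). WT libraries themselves were spread, with list medians of 0.21, -0.62 and 0.51 against their mean, and 0.72, 0.67 and 1.09 in C59S. Pecam1, the junctional adhesion molecule CD31, was at 51.5, 34.5 and 63.6 CPM in WT and 79.2, 85.0 and 122 CPM in C59S. Its log2 fold change was 0.93 ± 0.22 (edgeR adjusted p = 0.13; paired 0.0345; 0.00825 to 0.844 over the alternatives). Vwf, the clotting factor stored by endothelial cells, was at 5.90, 3.52 and 5.29 CPM in WT and 10.2, 9.02 and 15.7 CPM in C59S (1.24 ± 0.30). For both genes WT replicate 2 was lowest and C59S replicate 3 highest. Without WT replicate 2 the list median was 0.46, and with C59S replicate 1 as the only C59S library it was 0.65.

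Fibroblast and matrix genes were higher in 27 of 28 members (median 0.71), 11 of them at an unadjusted p under 0.05 and 5 in the paired fit (8.23% and 1.48% of all tested genes higher). Here the adipocyte-rich libraries carried most of the difference: the list median against the WT mean was 0.14, 0.80 and 1.32 in C59S replicates 1, 2 and 3, and the list median was 0.44 without C59S replicate 3 and 0.09 with replicate 1 as the only C59S library. Lum, the collagen-binding proteoglycan lumican, was at 1.05, 1.26 and 1.05 CPM in WT and 2.76, 6.81 and 6.34 CPM in C59S, a log2 fold change of 2.23 ± 0.38 (edgeR adjusted p = 0.112; paired 0.0334; 7.87e-05 to 0.844 over the alternatives). Postn, the matrix protein periostin, was at 1.18, 1.46 and 1.76 CPM in WT and 3.88, 19.04 and 25.9 CPM in C59S. Both genes were above WT in every C59S library, and least so in replicate 1.

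Macrophage genes were higher in all 13 members (median 0.78), 7 of them at an unadjusted p under 0.05 and 4 in the paired fit (8.23% and 1.48% of all tested genes higher). C1qc, a subunit of complement C1q, was at 18.5, 20.6 and 26.7 CPM in WT and 25.8, 40.2 and 37.9 CPM in C59S. Its C59S replicate 1 lay inside the WT range, and the list median against the WT mean was 0.39, 0.92 and 0.96 in the 3 C59S libraries. Kidney injury genes were higher in 18 of 21 members (median 0.51), 8 of them at an unadjusted p under 0.05 (8.23%) and 1 in the paired fit (1.48%). Vim, the intermediate filament vimentin, was at 101, 74.0 and 106 CPM in WT and 116, 154 and 222 CPM in C59S. Mesothelial genes were higher in all 6 members (median 2.18, 1.4 without C59S replicate 3), with Msln, mesothelin of the organ capsule, at 0.67, 0.40 and 1.00 CPM in WT and 4.85, 2.71 and 4.79 CPM in C59S.

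White adipocyte genes gave the largest folds of the comparison, and almost all of that came from 2 libraries. Of the 18 members 17 were higher, 14 at an unadjusted p under 0.05 (8.23% of all tested genes), and 1 passed the paired fit (1.48%). With at most 5 reads in any WT library, Lep, Plin1, Adrb3, Adipoq, Cidec and Retn passed the low-count filter only through knock-in libraries. Their direction was thus fixed in advance, so these counts describe the values and are no test. Cfd, with 4 to 12 reads in WT libraries, came near to this. Adipoq, the adipocyte hormone adiponectin, had 0, 1 and 1 reads in WT and was at 0.22, 42.3 and 39.8 CPM in C59S. Over the groups the ratio of scaled reads was 776 (95% exact interval 214 to 6410, covering counting error only). Cfd, the complement protease adipsin, was at 0.38, 0.20 and 0.57 CPM in WT and 2.24, 158 and 429 CPM in C59S. Car3, a carbonic anhydrase of adipocytes, was at 5.56, 6.89 and 10.5 CPM in WT and 4.93, 207 and 243 CPM in C59S. C59S replicate 1 thus lay just below the lowest WT library for Car3. For Adipoq and Cfd it lay above the highest WT library, at 0.22 against 0.05 CPM and at 2.24 against 0.57 CPM. C59S replicates 2 and 3 stood far above all WT libraries in these genes. The edgeR adjusted p of these genes ran from 0.188 to 0.225.

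In 9 of the 18 adipocyte list members all C59S libraries, replicate 1 included, lay above all WT libraries. These included Adipoq, Cidec and Retn, whose direction the low-count filter fixed in advance. Pparg, the transcription factor of fat cell differentiation, was at 1.05, 1.51 and 1.81 CPM in WT and 3.73, 5.19 and 9.38 CPM in C59S. Its groups did not overlap, and the log2 fold change was 2.05 ± 0.38 (edgeR adjusted p = 0.112; paired 0.0321; 1.43e-04 to 0.844 over the alternatives). Fabp4, a fatty acid binding protein of adipocytes and endothelium, was at 62.9, 26.9 and 54.6 CPM in WT and 149, 339 and 650 CPM in C59S. Cd36, a fatty acid uptake receptor also found outside fat, was at 39.8, 46.8 and 15.9 CPM in WT and 90.6, 76.8 and 104 CPM in C59S. With replicate 1 as the only C59S library the list median was 1.00, and it was 2.53 with all 3.

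**Figure D4:**
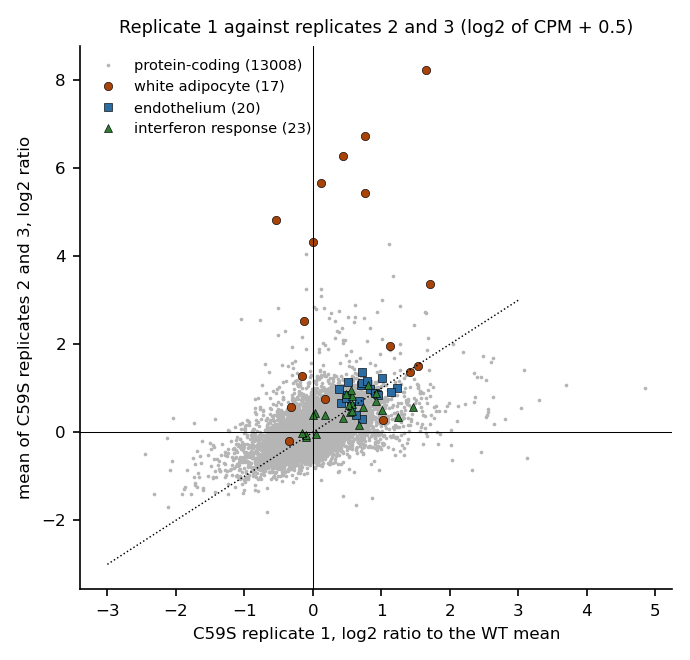
Log2 ratio to the WT mean (log2 of CPM + 0.5) in C59S replicate 1 (horizontal) and as the mean of C59S replicates 2 and 3 (vertical) for 13008 protein-coding genes of at least 1 CPM, with 3 lists marked; the dotted line marks equal values. Endothelial and interferon response genes lie near the line, many adipocyte genes lie far above it, and others of that list lie near or below it.

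In all, 36 protein-coding genes were at least 2-fold above the highest WT value in C59S replicates 2 and 3 but not above it in replicate 1, 5 of them from the adipocyte list. C3, the central complement component, was one of the others, at 23.8, 30.1 and 23.0 CPM in WT and 20.7, 61.5 and 82.9 CPM in C59S. A further 34 were above WT in replicate 1 as well, by less than 2-fold.

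Among the lower protein-coding genes with the largest folds were several of low level that share their position with another gene. 4933411K16Rik, which lies within the span of Hoga1 on the same strand, was at 4.47, 8.25 and 1.72 CPM in WT and 0.56, 1.22 and 0.68 CPM in C59S, a log2 fold change of -2.54 ± 0.53. Adam1b, which overlaps Tmem116, was at 3.45, 4.93 and 1.10 CPM in WT and 0.45, 0.86 and 0.61 CPM in C59S. The strand setting of the counting is not given in the sources used here, so reads of overlapping genes cannot be told apart. WT replicate 3 was the lowest WT library in both genes. Dpys, dihydropyrimidinase of pyrimidine breakdown, overlaps Gm16291 and was at 5.94, 5.18 and 11.7 CPM in WT and 1.53, 1.85 and 3.04 CPM in C59S. Its log2 fold change was -1.86 ± 0.56 (edgeR adjusted p = 0.168; paired 0.0321; 0.0086 to 0.844 over the alternatives).

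LincRNA genes, which encode long RNAs transcribed mostly between protein-coding genes, had lower log2 fold changes as a class, a description with no test. Their median log2 fold change was -0.24, and 371 of 543 were lower (68.3%, against 48.9% of all tested genes), while protein-coding genes had a median of 0.03 and 46.1% lower. At least 2-fold lower were 47 lincRNA genes (8.66%, against 2.99% of all tested genes) and at least 2-fold higher 10 (1.84%, against 2.82%). The difference between the medians was -0.27. It shrank to -0.15 with C59S replicate 1 as the only C59S library and to -0.12 with the adipocyte genes as a covariate, and kept its sign in every alternative run. The shift was present at each level of expression, with lincRNA medians of -0.24 under 1 CPM, -0.29 at 1 to 3 CPM, -0.16 at 3 to 10 CPM and -0.16 at 10 CPM and over. Groups did not overlap in 82 lincRNA genes that were lower (15.1%, against 11.3% of all tested genes) and 23 that were higher (4.24%, against 11.2%).

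The shift was uneven across libraries. Against the WT mean the lincRNA median was 0.07, 0.05 and -0.08 in WT and -0.07, -0.17 and -0.28 in C59S. As a share of all counts outside X, Y and MT, lincRNA genes took 1.31%, 1.43% and 0.81% in WT and 1.08%, 0.81% and 0.70% in C59S, so the groups overlapped through WT replicate 3. The lincRNA Malat1, an abundant nuclear RNA, made up much of this, with 0.40%, 0.57% and 0.19% in WT and 0.27%, 0.21% and 0.15% in C59S. Some other noncoding classes leaned the same way: medians were -0.34 over 534 antisense RNA genes, -0.57 over 47 sense intronic genes and -0.51 over 352 genes of the class TEC, transcripts awaiting experimental evidence. Processed pseudogenes did not: their median over 510 genes was 0.00, with 255 lower and 255 higher. The median was -0.19 in 283 lincRNA genes that overlap no other gene and -0.33 in 120 that overlap a protein-coding gene.

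**Figure D5:**
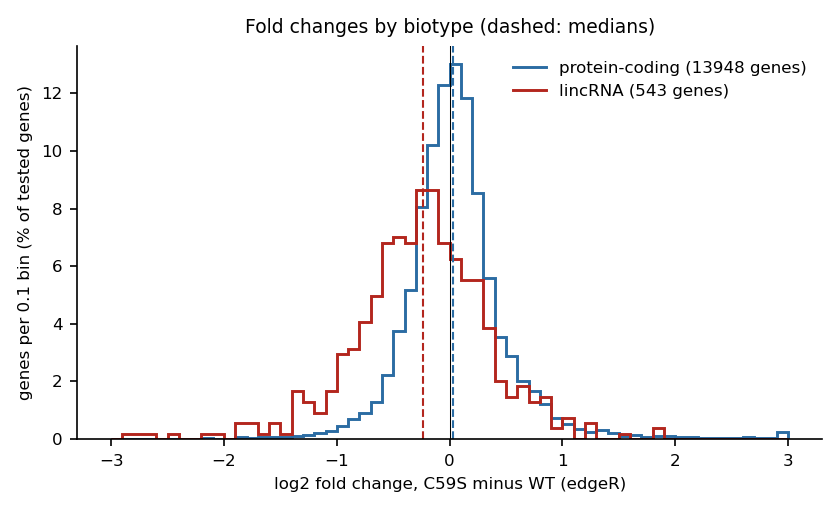
Percentage of tested genes per 0.1 bin of log2 fold change, C59S minus WT, for 13948 protein-coding genes (blue) and 543 lincRNA genes (red), with values beyond 3 on either side placed in the outermost bin and dashed lines at the medians. The lincRNA distribution is broader and its median lies at -0.24, against 0.03 for protein-coding genes.

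Single lincRNA genes were mostly of low level. Gm38102 was at 7.58, 9.96 and 3.34 CPM in WT and 1.79, 2.71 and 1.08 CPM in C59S, a log2 fold change of -1.88 ± 0.41 (edgeR adjusted p = 0.121; paired 0.0321; 0.00115 to 0.844 over the alternatives). D230017M19Rik was at 10.6, 15.3 and 5.44 CPM in WT and 3.54, 5.23 and 3.64 CPM in C59S (-1.33 ± 0.36). In both genes WT replicate 3 was the lowest WT library and lay closest to C59S. Gm45250 was more even, at 9.18, 8.85 and 6.82 CPM in WT and 4.10, 4.92 and 4.59 CPM in C59S (-0.87 ± 0.20). Gm12847 was near the limit of counting, with 0.07 to 0.20 CPM in C59S and 0.52 to 1.51 CPM in WT, where 3 reads equal 0.11 to 0.20 CPM. Gm26873, Gm26773, Gm6999 and Gm4419 had log2 fold changes between -1.83 and -1.33 at 0.19 to 2.77 CPM.

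LincRNA genes that were higher were fewer and closer to WT. Snhg18, a snoRNA host gene, was at 35.6, 32.4 and 41.9 CPM in WT and 50.2, 49.99 and 45.4 CPM in C59S. Its groups were separate, but the log2 fold change was only 0.41 ± 0.12 (edgeR adjusted p = 0.151; paired 0.0944; 0.0411 to 0.844 over the alternatives). AW112010 was at 2.82, 4.68 and 4.62 CPM in WT and 6.45, 8.48 and 7.15 CPM in C59S (0.87 ± 0.24). Meg3, the maternally expressed imprinted RNA, was at 3.20, 3.02 and 3.05 CPM in WT and 4.29, 7.04 and 5.94 CPM in C59S (0.89 ± 0.35). No lincRNA gene passed higher in the paired fit.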

How the data were processed

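Per the labels, kidney total RNA was isolated by TRIzol, and NEBNext Ultra RNA reagents served for library construction. The authors deposited 1 table of raw read counts per gene and 1 of FPKM for 9 libraries. The submitters' processing notes name featureCounts 1.5.0-p3 and HISAT2 2.0.5, with fastp, CASAVA 1.8, DESeq2 1.20.0 and the build GRCm38, and the strand setting is not given in the sources used here.

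Counts of the 9 libraries were fitted with edgeR 4.0.16 in R 4.3.3 (filterByExpr, TMM, robust quasi-likelihood test, 1 mean per genotype), and p-values of C59S minus WT were adjusted by Benjamini-Hochberg over all 17114 tested genes, with a threshold of 0.05. DESeq2 1.42.0 on counts and limma 3.58.1 on voom values and on log2(FPKM + 1) or log2(FPKM + 0.1) were among 24 alternatives. The scripts were tested on simulated data. CPM uses library totals times TMM factors, and log2 levels add 0.5 CPM. Precision is limited by 18428728 to 25787659 counts per library. No 2 libraries within WT or within C59S agreed within sampling noise, and other pairs were not checked.

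Replicate numbers come from the titles. Deviations from the group means correlated at 0.32, 0.20 and 0.26 between same-numbered WT and C59S libraries, over 17114 genes, each above the minimum of 0.1, so the numbers were taken to pair the libraries. The labels do not say what a number marks. The sample names in the count table mostly carry other numbers. There, the number that both genotypes share joins WT replicate 3 and C59S replicate 2, whose deviations correlated at 0.0085. The pairing was chosen from the same counts that were then tested, so calls that use it are no independent support. A 6-library fit with the number as a block is called the paired fit, and its adjusted p is printed beside a gene mainly where it changes the call.

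Genes named were the NF-kB family members under an unadjusted p of 0.05 and Nfkb1, the non-overlapping genes with the largest fold changes (at least 1 CPM), those that were also tight within each genotype (at least 10 CPM), the genes with the smallest p, the 4 members of each list with the smallest p, and the 5 adipocyte genes with the highest CPM. Lcn2, Stat2, Malat1, Scnn1a, Fos, Egr1, Nr4a1, Cyp21a1, Eif2s3y, C3, Caps2 and the genes counted by library pattern were named after their values were seen. The same holds for Xist, Ucp1, Cidea, Lep, Plin1, Adrb3 and Napsa. The members and the gene lists were chosen with earlier results of these data known. By symbol 749 list entries matched a gene of the table and 2 did not.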

Additional observations from a re-analysis of the deposited data

Results flagged for a closer look

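Mitochondrial genes, which lie outside the compared genes, took 25.3%, 20.5% and 40.5% of the counts in C59S replicates 1, 2 and 3, above the highest WT share of 19.6%. Their part in the differences was not tested beyond the refit with this share as a covariate.

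Genes of the adrenal cortex, an organ at the upper pole of the kidney, summed to 138 CPM in C59S replicate 2 against at most 12.6 CPM in WT. Eif2s3y on chromosome Y had 4 reads in C59S replicate 1 and 17 in C59S replicate 3, above the 0 to 3 reads in WT. The 17 reads equal 1.15 CPM. Xist on chromosome X was at 1250, 1280 and 816 CPM in WT and 891, 885 and 895 CPM in C59S. In every library Xist was thus far above Eif2s3y.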

How the results depend on the processing

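Counts of called genes depended on the fit. Against 0 protein-coding and 0 lincRNA calls in edgeR, library totals alone gave 17 and 0, no filter on low counts gave 263 and 7, DESeq2 gave 528 and 19, and the paired fit with the replicate block over the 6 libraries gave 558 and 13. The replicate block over all 9 libraries gave 0 and 0. Leaving out each library in turn gave 0 to 582 protein-coding and 0 to 28 lincRNA calls, highest without WT replicate 3. The cause was not tested. The difference of the lincRNA and protein-coding medians, -0.27, was -0.16 with limma on log2(FPKM + 1), -0.12 with adipocyte genes as a covariate and -0.15 without C59S replicates 2 and 3, and from -0.36 to -0.18 leaving out each library in turn. With library totals alone, groups did not overlap in 3.26% (higher) and 19% (lower) of protein-coding genes and in 1.1% (higher) of lincRNA genes. The sign turned for Nfkb1 with library totals (-0.0429), for S100a8 with the mitochondrial share as a covariate (-0.10), and, with adipocyte genes as a covariate and without C59S replicates 2 and 3, for Acta1 (-2.54 and -0.28) and Car3 (-1.58 and -0.63). Among recomputed values of named genes and gene lists, 244 passed the threshold that the reported value missed, 3852 kept their direction and side of it or stayed within the spread, 6 turned sign, and 114, all list medians, moved by more than the spread. At these depths 3 reads equal 0.11 to 0.20 CPM, which limits lincRNA genes most.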

Other observations

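Heat shock genes and immediate early genes belong to no group described above. Immediate early genes were uneven, with 5 of 20 tested genes higher and 0 lower at an unadjusted p under 0.05 (8.23% and 9.84% of all tested genes) but a median of -0.05. Without WT replicate 2, where Fos, Egr1 and Nr4a1 were far higher than in the other WT libraries, the median was 0.45. Heat shock genes had 4 of 16 higher and 0 lower by the same measure, with a median of 0.07 that was -0.01 without C59S replicate 3 and 0.18 without WT replicate 3. Nuclear genes of the respiratory chain had a median of 0.00 and no member at an unadjusted p under 0.05 in edgeR's quasi-likelihood test, beside the higher mitochondrial share in C59S. Smooth muscle and pericyte genes had a median of 0.42 with all 3 C59S libraries and -0.17 with replicate 1 alone, and lymphocyte genes 0.47 and -0.26. Without C59S replicate 3 these medians were 0.23 and 0.09, and without WT replicate 3 0.81 and 0.71.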
